A study of Homo sapiens with 33 samples.

Results

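The response to total loss of GABPB1 was compared between A-375, an established melanoma line, and UM-UC-3, an established bladder cancer line. Genes entered the comparison when the authors' deposited tables of both lines listed the same gene name and gave it a mean of at least 10 normalized counts in each. Of 12644 names found in both tables, 12639 were kept (of 14332 entries for A-375 and 13310 for UM-UC-3). Just below the minimum lay RBM24, with a lower mean of 9.684, and just above it GRIK4, with 10.72. Total knockout joins both kinds of edited clone in the series. In A-375 there were 4 libraries of 4 clones with exons 2 to 9 of GABPB1 deleted (B1KO) and 8 libraries of 5 clones with exon 2 deleted (B1X2KO). In UM-UC-3 there were 4 libraries of 4 B1KO clones and 5 libraries of 4 B1X2KO clones. The unedited (parental) controls were 2 A-375 libraries and a single UM-UC-3 library. The series also holds 4 A-375 libraries and 3 UM-UC-3 libraries of clones cut at ROSA26, a control locus. All clones were grown from single sorted cells after Cas9 editing, so each is 1 clone of its line.

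GABP is a transcription factor assembled from GABPA, which recognises DNA with a GGAA core through its ETS domain, and a B subunit that activates transcription. GABPB1 supplies most of the B subunit in many cells, and GABPB2 is its paralog. GABP is known for housekeeping promoters, among them those of genes for mitochondrial respiration, mitochondrial translation, the cell cycle and ribosomes. It also binds the TERT promoter in cancers that carry certain promoter mutations.

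What was measured in each line was 1 fitted log2 change per gene, knockout over control, with its standard error (SE), and values below are written as change ± SE. The tables hold no value per library, so depth is unknown and the spread between clones enters only through the SE. The median SE was 0.25 in A-375 and 0.17 in UM-UC-3. The tables name the parental cells as control, so the UM-UC-3 changes may rest on 1 control library; whether ROSA26 clones were added is not stated. The p-values measure the spread between the libraries of these fits, part of which come from the same clone. Of 8 melanocyte markers, 5 had an entry for A-375, among them SOX10 (mean normalized count 14704), S100B (1586) and MITF (686) in the authors' deposited table, whereas MLANA, TYR and DCT had none. UM-UC-3 had an entry for 6 of the 8, including SOX10 (93.6), DCT (109) and MLANA (38.9) in the authors' deposited table. Of the markers with an entry in both lines, SOX10, S100B and MITF had lower means in UM-UC-3. TYRP1 had a higher mean there (64.7, and 15.3 in A-375, authors' deposited tables). Of 11 urothelial and epithelial markers, 5 had an entry for UM-UC-3. KRT18 (8029) and PPARG (990) were present in the authors' deposited table, and the uroplakins, KRT5, CDH1 and EPCAM had no entry. The summed mean normalized counts of the melanocyte markers were 17011 in A-375 and 716 in UM-UC-3, and those of the urothelial and epithelial markers 7013 and 11796. The tables are on different scales (19087710 and 42241388 normalized counts summed over members), so these sums give no order of the lines for the urothelial markers, of which A-375 also had 5. Among leukocyte markers, CD68 had an entry in both tables, and PTPRC, CD14 and CD3E had one in neither.

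The entries GABPB1L and GABPB1S fell in both lines, while 2 other entries of the deleted gene, marked DEX2, were higher. In the authors' deposited tables the entry GABPB1L, the long form, had a log2 change of -10.60 ± 0.70 in A-375 and -12.60 ± 0.71 in UM-UC-3. GABPB1S, the short form, had -9.81 ± 0.72 and -9.86 ± 2.70 in the authors' deposited tables. Neither difference between the lines passed the test (adjusted p of the difference 0.185 for GABPB1L and 0.994 for GABPB1S). GABPB1L-DEX2 had 13.61 ± 1.96 and 11.81 ± 1.47, and GABPB1S-DEX2 12.36 ± 1.88 and 10.15 ± 1.62, in the authors' deposited tables (adjusted p of the difference 0.692 and 0.614). Mean normalized counts were 615.5 and 797.9 for GABPB1L-DEX2 and 130.3 and 270.9 for GABPB1L in the authors' deposited tables, so RNA of the locus was still counted. With 1 group near 0, none of these changes has a meaning as a fold. Both partner genes rose in both lines. GABPA rose by 0.81 ± 0.22 in A-375 (adjusted p 0.00509) and 1.44 ± 0.19 in UM-UC-3 (adjusted p 6.25e-12) in the authors' deposited tables. GABPB2 rose by 1.80 ± 0.33 and 2.49 ± 0.20 in the authors' deposited tables. The A-375 change minus the UM-UC-3 change was -0.62 (95% interval -1.19 to -0.06, adjusted p 0.147) for GABPA and -0.68 (-1.43 to 0.06, adjusted p 0.243) for GABPB2.

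More genes were called in UM-UC-3 than in A-375, and most calls were made in 1 line only. With the authors' adjusted p under 0.05 as the call, 579 members (4.58%) were higher and 732 (5.79%) lower in A-375. In UM-UC-3, 2124 (16.8%) were higher and 1848 (14.6%) lower. With each line centred on its median, the A-375 split became 753 higher and 541 lower, and that of UM-UC-3 1939 higher and 2040 lower. Called in both lines in the same direction were 262 genes lower and 152 higher, named the shared core here. These counts include the entries of GABPB1 itself given above. The lower core made up 35.8% of the A-375 falls and 14.2% of those in UM-UC-3, and the higher core 26.3% and 7.16% of the rises. Another 39 genes were higher in A-375 and lower in UM-UC-3, and 30 were lower in A-375 and higher in UM-UC-3. Across the 12639 genes the changes had a Pearson r of 0.33 and a Spearman rho of 0.25, a description over genes that share libraries and are no replicates.

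**Figure D1:**
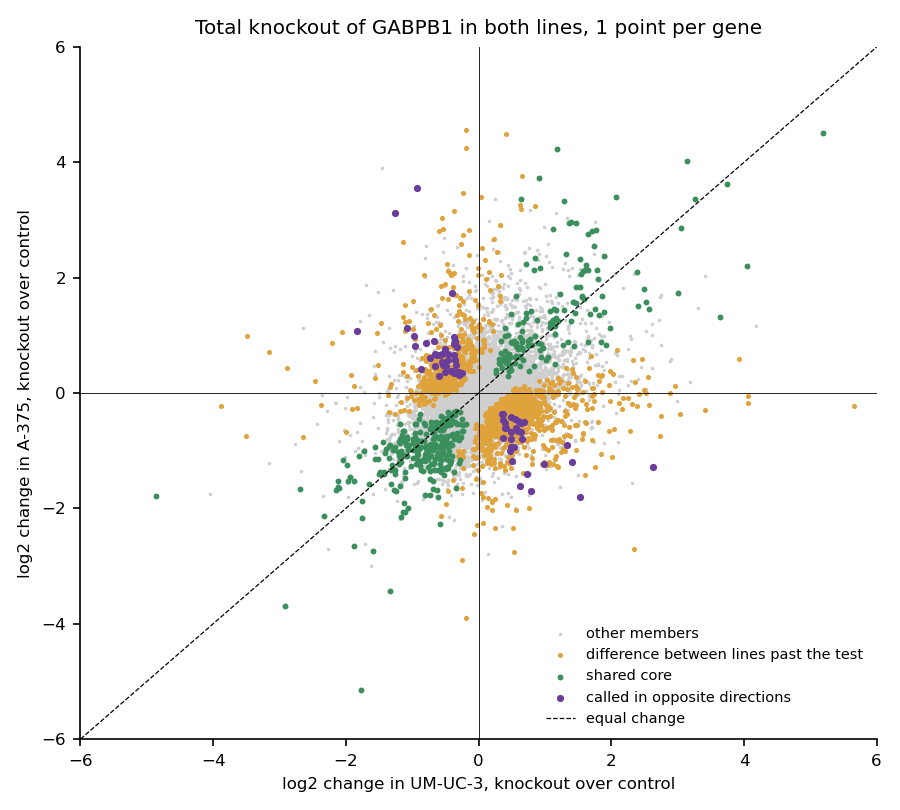
Log2 change of each gene in UM-UC-3 (x axis) and A-375 (y axis), knockout over control, with 1 point per gene; green marks the shared core, orange genes past the difference test and purple genes called in opposite directions. The 414 core genes lie at the lower left and upper right; 15 genes with a change beyond 6 in either line fall outside the axes.

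The difference between the lines was tested gene by gene as the A-375 change minus the UM-UC-3 change over the root of the summed squared SEs, with a 2-sided normal p and Benjamini-Hochberg adjustment over all 12639 members. It passed at an adjusted p under 0.05 for 521 genes (4.12%) with A-375 above UM-UC-3 and 799 (6.32%) with A-375 below. After centring, these were 767 above and 565 below, so the split between both directions depends on where each table is set to 0. Of the core genes, 11 of 262 lower and 5 of 152 higher ones passed the difference test. Members called in A-375 only passed it in 175 of 440 cases where they were lower and 152 of 388 where they were higher. Those called in UM-UC-3 only passed in 270 of 1547 and 509 of 1942 cases. For the remaining genes called in 1 line only, no difference was shown. Another 129 of the 7839 genes called in neither line passed it.

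The named genes of the lower core include some of ubiquitin handling, the centrosome and kinase signalling. USP11, a deubiquitinase on the X chromosome, fell in both lines (-2.14 ± 0.23 in A-375 and -2.33 ± 0.16 in UM-UC-3, authors' deposited tables). The difference was 0.19 (95% interval -0.35 to 0.73, adjusted p 0.713). CUL7, a cullin scaffold of ubiquitin ligases, had -1.58 ± 0.25 and -1.65 ± 0.24, and NEDD1, which brings the gamma-tubulin ring complex to the centrosome, -1.38 ± 0.21 and -1.11 ± 0.19 (authors' deposited tables). FAM114A2 fell too, with -1.37 ± 0.23 and -1.49 ± 0.23 in the authors' deposited tables. C4orf27, now named HPF1, which steers PARP1 to serine residues, had -1.40 ± 0.24 and -1.43 ± 0.21 in the authors' deposited tables. For these 5 genes the difference ranged from -0.27 to 0.19, none past the test. ZDHHC4, a palmitoyltransferase, had -2.65 ± 0.45 and -1.88 ± 0.20, and PHC1, a Polycomb subunit, -2.17 ± 0.42 and -1.75 ± 0.20 in the authors' deposited tables, again without a difference past the test.

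A further 4 of the leading lower genes fell in both lines and further in A-375. RMND5B, a subunit of the CTLH ubiquitin ligase, had a log2 change of -3.43 ± 0.33 in A-375 and -1.34 ± 0.18 in UM-UC-3 (authors' deposited tables). Its difference was -2.09 (95% interval -2.83 to -1.35, adjusted p 1.63e-05). The mitotic kinase NEK9 had -2.74 ± 0.27 and -1.59 ± 0.22 (difference -1.15, adjusted p 0.0168), from the authors' deposited tables. STAMBP, an endosomal deubiquitinase, had -2.06 ± 0.29 and -1.11 ± 0.16 (difference -0.95, adjusted p 0.0430), from the authors' deposited tables. MAP2K5, the kinase that activates ERK5, had -2.15 ± 0.27 and -1.17 ± 0.21 (difference -0.99, adjusted p 0.0412), from the authors' deposited tables. The differences of STAMBP and MAP2K5 lost their calls after centring (adjusted p 0.0681 and 0.0648), and those of NEK9, STAMBP and MAP2K5 did so with SEs scaled to the number of clones (0.0553, 0.114 and 0.105). ANTXR1, a collagen-binding receptor, was the core gene with the clearest difference the other way: -1.78 ± 0.37 in A-375 and -4.86 ± 0.28 in UM-UC-3 in the authors' deposited tables (difference 3.08, adjusted p 5.58e-08).

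**Figure D2:**
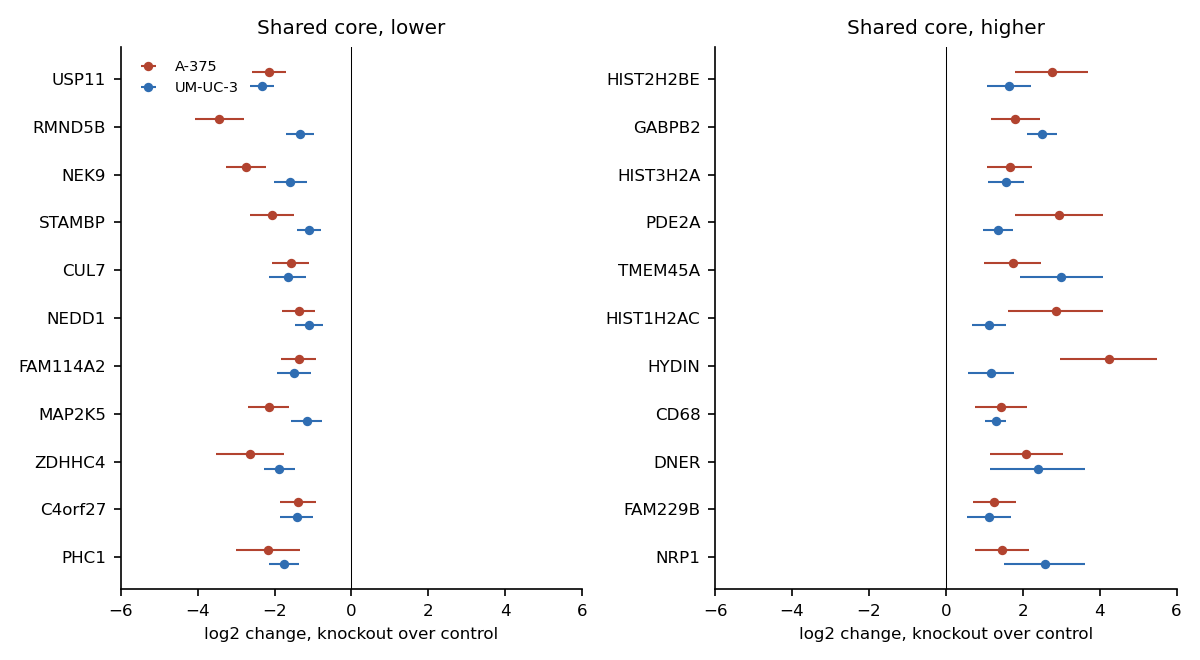
Log2 change (x axis, knockout over control) of the leading shared core genes in A-375 (red) and UM-UC-3 (blue); points are the authors' fitted values and bars 95% intervals from their SEs. All intervals drawn lie on 1 side of 0, which follows from choosing genes called in both lines. RMND5B and HYDIN show the widest gaps between lines, and GABPB1L and HDC are left out because 1 group was near 0.

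Promoters of the lower core held ETS matches more often than those of other members. RefSeq windows of 300 bases on GRCh38.p14, from 250 bases before to 50 after a start site, were found for 10047 of 12639 members (79.5%). They were searched on both strands for CCGGAAGT, and for its shorter parts CCGGAAG and CCGGAA, so every longer match is also a shorter one. Of 211 lower core genes with a window, 55 held CCGGAAGT (26.1%, exact binomial 95% interval 20.3 to 32.5%), beside 10.4% of all 10047 members and 5.22% of 115 higher core genes (1.94 to 11.0%). CCGGAA was found for 69.7% of the lower core (63.0 to 75.8%), 35.7% of all members and 24.3% of the higher core (16.8 to 33.2%). In the lower core, 73 genes (34.6%) held at least 2 such matches in 1 window, beside 10.5% of all members. The median GC content of the windows was 64.3% in the lower core and 65.0% over all members. Over all 35116 windows of the RefSeq table, 4.14% held CCGGAAGT, 10.3% CCGGAAG and 17.2% CCGGAA. Intervals cover counting error only, and a match is a description of letters, not a site of binding.

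Genes that fell in 1 line only stood between these groups. CCGGAAGT was present for 13.0% of 347 genes lower in A-375 only (9.62 to 17.0%) and 17.5% of 1270 lower in UM-UC-3 only (15.4 to 19.7%). It was present for 5.70% of 316 genes higher in A-375 only and 6.36% of 1572 higher in UM-UC-3 only. Seen from the promoter, 9003 members without CCGGAAGT were lower in both lines in 1.73% of cases, and 936 members with 1 match in 5.24%. Their median change was -0.04 and -0.14 in A-375, and 0.04 and -0.12 in UM-UC-3. The median difference between the lines was -0.10 and -0.04. The difference classes held CCGGAAGT for 12.2% of genes with A-375 above (9.24 to 15.6%) and 7.87% with A-375 below (5.93 to 10.2%), a smaller spread than that between core classes.

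**Figure D3:**
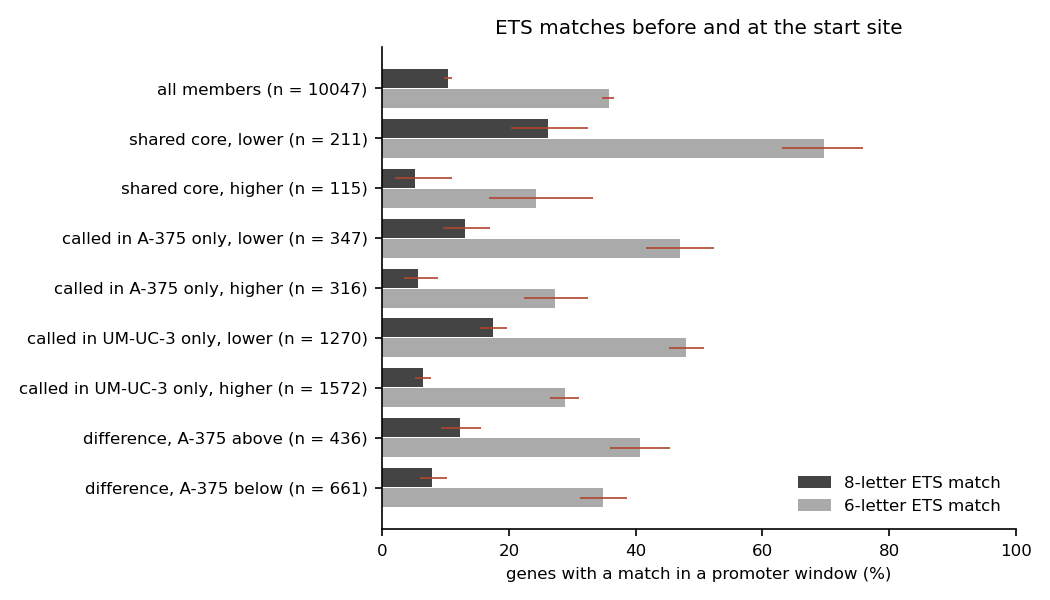
Share of genes (x axis, %) with a match to the 8-letter (dark) or 6-letter (light) ETS motif in a RefSeq promoter window, by class of response; red bars are exact binomial 95% intervals and n the genes with a window. The lower core reaches 26.1% and 69.7%, above every other class drawn, and the classes called higher lie under all members.

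Stretches of 61 bases before the start site are shown for the lower core genes named above that had a match there, because they let the spacing of the matches be read. They run 5' to 3' on the gene's strand, and capitals mark CCGGAA or its reverse complement TTCCGG. USP11 lies at chrX:47232937-47232997 (plus strand), RMND5B at chr5:178130953-178131013 (plus) and NEK9 at chr14:75127049-75127109 (minus). NEDD1 (first of 2 windows) lies at chr12:96907196-96907256 (plus), FAM114A2 at chr5:154038911-154038971 (minus), MAP2K5 at chr15:67542641-67542701 (plus) and PHC1 (the other of 2 windows) at chr12:8914448-8914508 (plus).
USP11: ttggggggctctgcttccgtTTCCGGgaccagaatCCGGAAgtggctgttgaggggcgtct
RMND5B: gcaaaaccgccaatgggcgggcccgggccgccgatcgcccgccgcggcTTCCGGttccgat
NEK9: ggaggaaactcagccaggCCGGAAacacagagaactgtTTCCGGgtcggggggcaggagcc
NEDD1: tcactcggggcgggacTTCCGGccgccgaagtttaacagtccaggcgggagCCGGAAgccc
FAM114A2: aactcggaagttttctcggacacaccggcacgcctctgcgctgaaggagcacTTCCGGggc
MAP2K5: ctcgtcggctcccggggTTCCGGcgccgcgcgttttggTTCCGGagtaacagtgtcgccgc
PHC1: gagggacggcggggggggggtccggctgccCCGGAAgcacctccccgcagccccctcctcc
USP11, NEK9, NEDD1 and MAP2K5 show 2 matches each within the stretch. The nearer match ended 31 bases before the start site in USP11, 17 in NEK9, 4 in NEDD1 and 18 in MAP2K5. HPF1 had 1 match that crosses the start site, and RMND5B a second one beyond it. FAM114A2 had a second match 76 bases before the start site, outside the stretch. The second window of NEDD1, which overlaps the first, held 2 matches, and the windows of MAP2K5 and PHC1 not shown held none. STAMBP, CUL7 and ZDHHC4 had no window to search, and no match lay in either window of ANTXR1.

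A match was also present where RNA did not fall in both lines. GABPA, which rose in both, carries it on chromosome 21 at chr21:25734880-25734940 (plus strand), 59 bases before the start site. USMG5, now ATP5MK, fell in UM-UC-3 only and holds 3 matches: 1 that crosses the start site, and a pair on both strands that overlap, 154 bases before it, shown at chr10:103396603-103396663 (minus strand). Both are shown for contrast with the core stretches.
GABPA: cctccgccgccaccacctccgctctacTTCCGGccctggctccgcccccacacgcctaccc
USMG5: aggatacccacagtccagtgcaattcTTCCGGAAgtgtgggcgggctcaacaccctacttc
No CCGGAA lies in the windows of the higher core genes HIST2H2BE, HIST3H2A, PDE2A, TMEM45A, HIST1H2AC, HDC, CD68 and FAM229B.

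The higher core held histone genes, membrane receptors and signalling genes. HIST2H2BE, an H2B gene, rose by 2.76 ± 0.48 in A-375 and 1.64 ± 0.29 in UM-UC-3, and HIST3H2A by 1.66 ± 0.30 and 1.55 ± 0.24 (authors' deposited tables). HIST1H2AC rose by 2.85 ± 0.63 and 1.12 ± 0.22 in the authors' deposited tables. Near-identical histone copies can share reads, so single histone values are uncertain. Polyadenylated RNA was sequenced, so these values are for histone RNA with a poly(A) tail only. PDE2A, a phosphodiesterase of cyclic nucleotides, rose by 2.95 ± 0.58 and 1.36 ± 0.20, and the lysosomal glycoprotein CD68 by 1.43 ± 0.34 and 1.29 ± 0.14 (authors' deposited tables). NRP1, a co-receptor for VEGF and semaphorins, rose by 1.46 ± 0.36 and 2.57 ± 0.54, and DNER, a Notch ligand, by 2.09 ± 0.49 and 2.38 ± 0.63 (authors' deposited tables). TMEM45A rose by 1.74 ± 0.38 and 3.00 ± 0.55, and FAM229B by 1.26 ± 0.28 and 1.11 ± 0.29 (authors' deposited tables). None of these passed the difference test, with adjusted p from 0.0716 for PDE2A to 0.901 for HIST3H2A. The cilium gene HYDIN did: it rose by 4.23 ± 0.64 in A-375 and 1.18 ± 0.30 in UM-UC-3 in the authors' deposited tables (difference 3.05, 95% interval 1.67 to 4.44, adjusted p 0.00111).

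HDC, which encodes the enzyme that makes histamine, is the core gene nearest to the deletion. In GENCODE release 29 on hg38 it spans chromosome 15 from 50241947 to 50266026 on the minus strand, 9365 bases from GABPB1 (50275392 to 50355408, same strand), on the side of the 3' end of GABPB1. It rose in both lines, with a mean normalized count of 734 in A-375 and 630 in UM-UC-3, both called (0.000536 and 4.06e-17) in the authors' deposited tables. Its log2 changes (8.25 ± 1.86 and 25.81 ± 2.83 in the authors' deposited tables) have no fold meaning, since 1 group was near 0, and neither has its difference. Whether its reads come from transcripts that start in GABPB1 was not tested. Of 9 members within 1 Mb of GABPB1, 1 other was called: SPPL2A, an intramembrane protease, with -1.53 ± 0.49 and -1.87 ± 0.24 in the authors' deposited tables. The overlapping antisense gene GABPB1-AS1 was called in neither line (-0.52 ± 0.29 and -0.43 ± 0.32, adjusted p 0.247 and 0.326, authors' deposited tables).

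Where A-375 lay above UM-UC-3, the leading genes included some of the actin cytoskeleton and cell surface. MYL6, a light chain of non-muscle myosin, rose by 0.91 ± 0.16 in A-375 and had -0.68 ± 0.14 in UM-UC-3, both called in the authors' deposited tables. Its difference of 1.59 (95% interval 1.17 to 2.00) had an adjusted p of 7.92e-10. LGALS1, which encodes galectin-1, had 0.87 ± 0.21 and -0.80 ± 0.18 (difference 1.67, adjusted p 1.36e-06), from the authors' deposited tables. The heparan sulfate proteoglycan GPC1 had 0.99 ± 0.30 and -0.97 ± 0.14 (difference 1.96, adjusted p 3.10e-06), from the authors' deposited tables. The tetraspanin CD151 had 0.61 ± 0.21 and -0.73 ± 0.14 (difference 1.34, adjusted p 4.57e-05), and PRKCDBP, a caveolar coat protein now named CAVIN3, 1.12 ± 0.30 and -1.09 ± 0.22 (difference 2.21, adjusted p 3.10e-06), from the authors' deposited tables. ARPC4, a subunit of the Arp complex that nucleates actin, had 0.57 ± 0.13 and -0.35 ± 0.11 (difference 0.92, adjusted p 2.17e-05), from the authors' deposited tables. All 6 were called higher in A-375 and lower in UM-UC-3, and so were the glycosyltransferase GALNT18 (1.73 ± 0.29 and -0.41 ± 0.15) and the RNA polymerase subunit POLR2L (0.82 ± 0.20 and -0.96 ± 0.22) in the authors' deposited tables.

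In other genes above, 1 line carried the change. The scavenger receptor CD163L1 rose by 4.25 ± 0.60 in A-375 and had -0.19 ± 0.26 in UM-UC-3 (adjusted p 0.610) in the authors' deposited tables, a difference of 4.43 (adjusted p 5.10e-08). POP5, a subunit of RNase P, had -0.03 ± 0.16 in A-375 (adjusted p 0.931) and -1.37 ± 0.20 in UM-UC-3, where it fell (difference 1.34, adjusted p 4.85e-05), from the authors' deposited tables. USMG5, a small protein of ATP synthase, had 0.30 ± 0.20 (adjusted p 0.345) and -1.08 ± 0.14 (difference 1.38, adjusted p 1.13e-05), from the authors' deposited tables. The dynein light chain DYNLT1 had 0.21 ± 0.16 (adjusted p 0.433) and -0.86 ± 0.12 (difference 1.07, adjusted p 3.96e-05), from the authors' deposited tables.

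Where A-375 lay below UM-UC-3, the leading genes rose in UM-UC-3, fell in A-375, or both. ZCCHC24, a zinc finger gene, fell in A-375 (-0.91 ± 0.25) and rose in UM-UC-3 (1.33 ± 0.21) in the authors' deposited tables, a difference of -2.24 (95% interval -2.87 to -1.60, adjusted p 2.93e-08). MIA3 and CTAGE5, partners in the export of collagen from the endoplasmic reticulum, rose in UM-UC-3 by 1.05 ± 0.19 and 0.89 ± 0.13, with -0.23 ± 0.13 (adjusted p 0.266) and -0.28 ± 0.17 (adjusted p 0.287) in A-375, all in the authors' deposited tables. Their differences were -1.28 and -1.17, each with an adjusted p of 1.95e-05. PFKFB2, a regulator of glycolysis, rose in UM-UC-3 by 1.48 ± 0.17 and had 0.13 ± 0.16 in A-375 (adjusted p 0.661) in the authors' deposited tables (difference -1.35, adjusted p 1.04e-05). EHHADH, of peroxisomal fatty acid oxidation, had -0.39 ± 0.19 and 1.31 ± 0.24 (difference -1.70), and the amino acid transporter SLC43A1 -0.85 ± 0.31 and 1.25 ± 0.23 (difference -2.10), from the authors' deposited tables. UAP1L1 had -0.48 ± 0.19 and 1.24 ± 0.22 (difference -1.73) and MOSPD2, a tether of organelle contacts, -0.80 ± 0.29 and 1.21 ± 0.18 (difference -2.02), from the authors' deposited tables. The A-375 values of these last 4 genes were not called.

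In a pair of these genes the fall in A-375 carried the difference. NCAM2, a neural adhesion molecule, had -2.29 ± 0.31 in A-375 and -0.02 ± 0.20 in UM-UC-3 (difference -2.27, adjusted p 1.36e-06), from the authors' deposited tables. CNTRL, which encodes the centriole protein centriolin, had -1.81 ± 0.29 and 0.14 ± 0.18 (difference -1.96, adjusted p 5.25e-06), from the authors' deposited tables. TMEM110 (now STIMATE) also passed (adjusted p 1.42e-06), but its UM-UC-3 change in the authors' deposited table has no fold meaning, because 1 group was near 0.

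**Figure D4:**
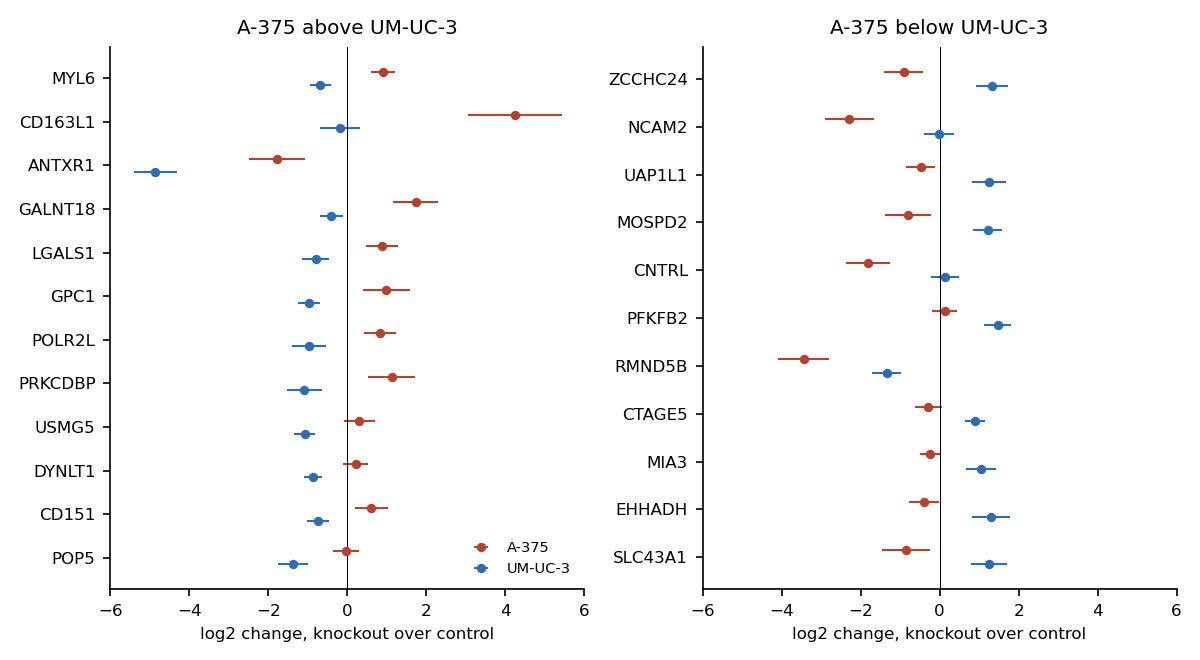
Log2 change (x axis, knockout over control) in A-375 (red) and UM-UC-3 (blue) of the genes with the clearest difference between lines; points are the authors' fitted values and bars 95% intervals from their SEs. Most pairs lie on both sides of 0 or have 1 line at 0, while ANTXR1 and RMND5B fell in both lines; TMEM110 is left out because 1 group was near 0.

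Of the 30 genes lower in A-375 and higher in UM-UC-3, the clearest included ZCCHC24 and SNAPC3, a factor of small nuclear RNA transcription (-0.52 ± 0.17 and 0.64 ± 0.14, difference -1.16, authors' deposited tables). TOX2 had -1.19 ± 0.40 and 1.41 ± 0.30 (difference -2.59), DBT, of branched-chain amino acid breakdown, -0.45 ± 0.14 and 0.54 ± 0.14 (difference -0.99), and STXBP5, which binds syntaxin, -0.49 ± 0.15 and 0.60 ± 0.16 (difference -1.08), from the authors' deposited tables. MRPS30, a mitochondrial ribosomal protein, had -0.61 ± 0.16 and 0.56 ± 0.17 (difference -1.17), from the authors' deposited tables. LNX2 had -0.94 ± 0.25 and 0.54 ± 0.13 (difference -1.48), and the Integrator subunit INTS6 -0.79 ± 0.26 and 0.65 ± 0.16 (difference -1.44), from the authors' deposited tables. LNX2 and INTS6 lie on chromosome 13, whose 225 members had a median change of -0.42 in A-375 and 0.05 in UM-UC-3. With chromosome medians removed, their differences were -1.01 and -0.98 (adjusted p 0.00880 and 0.0240). The opposite calls shift with centring, to 61 higher in A-375 and 15 lower. All 69 passed the difference test, which calls of opposite sign make nearly certain.

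Gene lists were described by counts of calls and by medians, beside the background percentages above and the medians of all members (-0.06 in A-375, 0.03 in UM-UC-3, -0.09 for the difference). Genes of oxidative phosphorylation were called lower in UM-UC-3 and not in A-375. For complex I, the entry point of electrons from NADH, 17 of 35 members fell and 0 rose in UM-UC-3, and 3 rose and 0 fell in A-375. Its medians were -0.44 and 0.17, and 10 of 35 members passed the difference test, all with A-375 above. NDUFC2 had 0.24 ± 0.13 in A-375 and -0.75 ± 0.14 in UM-UC-3 (difference 1.00, adjusted p 5.25e-05), and NDUFV2, called in both, 0.30 ± 0.10 and -0.60 ± 0.18 (difference 0.91, adjusted p 0.000680), from the authors' deposited tables. Complexes II to IV had 13 of 25 members lower in UM-UC-3 and 1 higher in A-375, with 8 past the difference test. Of these, UQCRQ of complex III had 0.37 ± 0.20 and -0.78 ± 0.18 (difference 1.15, adjusted p 0.00172), from the authors' deposited tables. ATP synthase, which makes ATP from the proton gradient, had 12 of 16 members lower in UM-UC-3, 1 higher in A-375 and 4 past the difference test, with ATP5L called in both (0.47 ± 0.14 and -0.49 ± 0.20, authors' deposited tables).

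These genes have short transcripts (a median of 1366 bases for complex I and 3720 for all members), and short genes as a whole differed the same way. Members with a length were cut into 5 equal bins. The bin of shortest genes (longest annotated transcript up to 2165 bases) had a median difference of 0.16, and 8.44% passed with A-375 above and 1.91% with A-375 below. In the bin of longest genes (from 6022 bases) the median was -0.23, with 2.31% above and 10.2% below. The share of core genes moved little with length, between 1.87% and 2.43% over the 5 bins for the lower core and between 1.09% and 1.38% for the higher core. With the length trend removed, the median difference of complex I went from 0.56 to 0.34 and its genes past the test from 10 to 7. For complexes II to IV the median went from 0.57 to 0.39 (8 to 5 genes), and for ATP synthase it stayed at 0.54 (4 to 6 genes).

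Lists of protein synthesis and breakdown differed in which line held the calls. Cytosolic ribosomal proteins had 13 of 79 members higher in A-375 and 2 lower in UM-UC-3, with medians of 0.39 and -0.28. The difference was above 0 for all 79, beside 5429 of all 12639 members, and these genes share libraries. It passed the test for 12, for 27 after centring and for 12 with the length trend removed. With scaled SEs the 4 clearest, RPLP1, RPS21, RPS27A and RPS20, were not called (0.0609, 0.0667, 0.0738 and 0.0834). RPS21 had 0.79 ± 0.22 and -0.61 ± 0.39 (difference 1.40, adjusted p 0.0268), from the authors' deposited tables, and its difference was not called with that trend removed (0.109). Ribosomal proteins have near-identical pseudogenes that can share reads. Proteasome subunits had 18 of 31 members lower in UM-UC-3 and 1 higher in A-375, and 9 passed the difference test (10 with the length trend removed). PSMB1 had 0.18 ± 0.11 and -0.76 ± 0.12 (difference 0.94, adjusted p 3.45e-06), from the authors' deposited tables. Mitochondrial ribosomal proteins had 24 of 77 members lower and 2 higher in UM-UC-3, and 3 lower and 2 higher in A-375, with medians of -0.26 in UM-UC-3 and -0.04 in A-375, and 6 passed with A-375 above and 3 below. Aminoacyl-tRNA synthetases had 9 of 37 lower and 4 higher in UM-UC-3 and 2 lower in A-375, and 1 passed with A-375 above and 2 below. MRPL16, lower in UM-UC-3, had -0.11 ± 0.22 and -0.98 ± 0.13 (difference 0.86, adjusted p 0.0137, not called with the length trend removed at 0.105), from the authors' deposited tables.

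Among glycolysis and hypoxia genes, 5 of 30 passed with A-375 above and 2 below. GAPDH rose in A-375 (0.53 ± 0.16) and fell in UM-UC-3 (-0.56 ± 0.17), a difference of 1.09 (adjusted p 0.000481), from the authors' deposited tables. The hexokinase HK1 went the other way, with -0.36 ± 0.19 (adjusted p 0.231) and 0.89 ± 0.20 (difference -1.25, adjusted p 0.000694), from the authors' deposited tables. Of 18 mitochondrial genes named as classical GABP targets, 9 fell in UM-UC-3 and 1 in A-375. The 1 core member was TFB1M, a methyltransferase of mitochondrial rRNA, with -0.90 ± 0.20 and -0.41 ± 0.12 in the authors' deposited tables, and 5 others passed the difference test with A-375 above (7 after centring, 2 with the length trend removed).

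Targets of p53, the tumour suppressor that halts the cell cycle after damage, were called higher mainly in A-375. Of 26 members 16 rose and 1 fell in A-375, where the median was 0.82, and 3 rose and 1 fell in UM-UC-3, where it was 0.17. The difference passed for 8, all with A-375 above, and for 10 after centring or with the length trend removed. DDB2, a DNA repair gene, had 0.80 ± 0.15 and -0.54 ± 0.23 (difference 1.34, adjusted p 0.000162), and the apoptosis gene BAX, called in both lines, 0.80 ± 0.20 and -0.33 ± 0.12 (difference 1.13, adjusted p 0.000324), from the authors' deposited tables. TP53I3 and the kinase PLK3 had differences of 1.01 (adjusted p 0.00346) and 1.09 (adjusted p 0.0104). Core members were ZMAT3 (0.87 ± 0.29 and 0.56 ± 0.14) and the death receptor TNFRSF10B (0.51 ± 0.18 and 0.55 ± 0.16) in the authors' deposited tables.

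The unfolded protein response, which adds chaperones when proteins misfold in the endoplasmic reticulum, was called higher mainly in UM-UC-3. Of 20 members 13 rose and 0 fell there, against 1 and 0 in A-375, with medians of 0.60 and 0.28. The difference passed for 3, all with A-375 below: the chaperone HSPA5 (0.21 ± 0.20 and 1.25 ± 0.26, difference -1.04, adjusted p 0.0218), its cochaperone DNAJB9 (0.75 ± 0.31 and 2.08 ± 0.27, difference -1.33, adjusted p 0.0192) and SEL1L, of protein disposal (0.22 ± 0.15 and 1.03 ± 0.19, difference -0.81, adjusted p 0.0159), from the authors' deposited tables. With the length trend removed, only DNAJB9 of these 3 was called, and with scaled SEs HSPA5 (0.0609) and DNAJB9 (0.0591) were not. DDIT3, the stress factor CHOP, listed here with the ATF4 amino acid response, had 0.38 ± 0.40 and 1.98 ± 0.25 (difference -1.60, adjusted p 0.0150, not called with scaled SEs at 0.0536), from the authors' deposited tables. That list had 4 of 24 members higher and 5 lower in UM-UC-3 and none called in A-375, and its other difference past the test, in ATF5, went the other way (0.97, adjusted p 0.0359). ERK output genes, which report MAP kinase signalling, had 4 of 19 past the difference test with A-375 below (2 with the length trend removed, and 1 above). Of these, the feedback inhibitor SPRY4 fell in A-375 (-1.24 ± 0.40) and rose in UM-UC-3 (0.99 ± 0.38), difference -2.22, adjusted p 0.00234, from the authors' deposited tables.

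Replication genes were called lower mainly in UM-UC-3. Of 47 genes of DNA replication and the G1/S step, 6 fell in A-375 and 35 in UM-UC-3, none rose, and 4 were core genes: POLA1, E2F2, POLE2 and MCM3. POLA1, the catalytic subunit that starts DNA synthesis, had -1.12 ± 0.20 and -0.98 ± 0.22 in the authors' deposited tables. The medians were -0.59 and -0.79, with a median SE of the difference of 0.45. Only the flap endonuclease FEN1 passed the difference test (0.11 ± 0.27 and -1.34 ± 0.26, difference 1.45, adjusted p 0.00341), from the authors' deposited tables. Mitotic genes had a median of -1.01 in A-375 with 3 of 49 called lower, and -0.40 in UM-UC-3 with 15 called lower and 1 higher. The A-375 share is near the 5.79% of all members. The difference was above 0 for 6 of the 49, beside 5429 of all 12639 members, and genes of a list share libraries. Its median was -0.60, with a median SE of 0.67. The 2 differences past the test were NEK9 and NEK2, a centrosome kinase (-1.07 ± 0.46 and 0.51 ± 0.20, difference -1.58, adjusted p 0.0248, not called with scaled SEs at 0.0789), from the authors' deposited tables. Of 33 genes of homologous recombination and Fanconi repair, 4 fell in A-375 and 12 in UM-UC-3, where 1 rose, and 0 passed the difference test. All 4 of the A-375 calls were core genes: FANCL (-0.79 ± 0.20 and -1.19 ± 0.20), FANCI (-1.07 ± 0.28 and -1.13 ± 0.22), CHEK2 (-1.31 ± 0.32 and -0.49 ± 0.17) and RAD54B (-1.05 ± 0.31 and -0.60 ± 0.25) in the authors' deposited tables.

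In other lists, calls in both lines were mainly or only higher, for a part of the members. Replication-dependent histones had 9 of 11 members higher in A-375, 6 in UM-UC-3 and 6 in the core, with medians of 2.44 and 0.88. As polyadenylated RNA was sequenced, histone RNA without a poly(A) tail is not covered by these values. HIST1H2BD was the 1 member past the difference test (3.72 ± 0.91 and 0.91 ± 0.25, difference 2.81, adjusted p 0.0347), from the authors' deposited tables, a call lost with the length trend removed (0.0891). Autophagy and lysosome genes had 8 of 38 higher in A-375, 13 higher and 1 lower in UM-UC-3, and 4 core members: GABARAPL1, CTSL, LAMP2 and MCOLN1. WIPI1, of early autophagosomes, had 0.29 ± 0.29 and 1.85 ± 0.14 (difference -1.55, adjusted p 0.000284), from the authors' deposited tables. It was 1 of 5 past the difference test with A-375 below, beside 1 with A-375 above. Interferon-stimulated genes had 3 of 30 higher in A-375, and 10 higher and 2 lower in UM-UC-3. IFI6 (1.24 ± 0.40 and 1.19 ± 0.32) and IRF9 (1.27 ± 0.41 and 1.12 ± 0.23) were the core members in the authors' deposited tables, and 0 passed the difference test. In antigen presentation, HLA-B and HLA-C, which share reads with their paralogs, were the core members (5 of 14 higher in A-375, and 5 higher and 2 lower in UM-UC-3). The 2 lower genes were those past the difference test: TAPBP (1.59 ± 0.74 and -0.99 ± 0.35, difference 2.58, adjusted p 0.0233) and PSMB10 (0.33 ± 0.28 and -0.70 ± 0.23, difference 1.02, adjusted p 0.0471), from the authors' deposited tables. With scaled SEs neither was called (0.0762 and 0.114).

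Lineage lists held few members, with calls in both directions. Of 16 melanocyte lineage genes, 2 were higher and 1 lower in A-375, and 3 higher and 2 lower in UM-UC-3, with 1 difference each way. BCL2A1, an inhibitor of apoptosis, rose in A-375 (3.40 ± 0.79) and had 0.03 ± 0.38 in UM-UC-3 (difference 3.37, adjusted p 0.00440), from the authors' deposited tables. The melanocyte factor MITF had -0.22 ± 0.46 in A-375 (adjusted p 0.809) and 1.47 ± 0.30 in UM-UC-3, where it rose (difference -1.69, adjusted p 0.0296), from the authors' deposited tables. Of 7 urothelial and epithelial genes, 1 was lower in A-375, and 3 were higher and 1 lower in UM-UC-3, where KRT18, a keratin, fell (-0.67 ± 0.20, authors' deposited table). PPARG, active in urothelium, had -0.50 ± 0.39 in A-375 (adjusted p 0.436) and rose by 1.15 ± 0.32 in UM-UC-3 (difference -1.64, adjusted p 0.0193), from the authors' deposited tables. With scaled SEs the differences of MITF and PPARG were not called (0.0862 and 0.0608). Of 17 YAP and TEAD targets, 2 were lower in A-375 and 1 in UM-UC-3, with medians of -0.45 and -0.16. The 1 member called higher was NOV, a matricellular protein, with 3.62 ± 0.63 and 3.75 ± 0.75 in the authors' deposited tables. PTPN14 was the 1 member past the difference test (-0.49 ± 0.14 and 0.11 ± 0.13, difference -0.60, adjusted p 0.0217), from the authors' deposited tables. Its call was lost after centring and with the length trend removed.

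**Figure D5:**
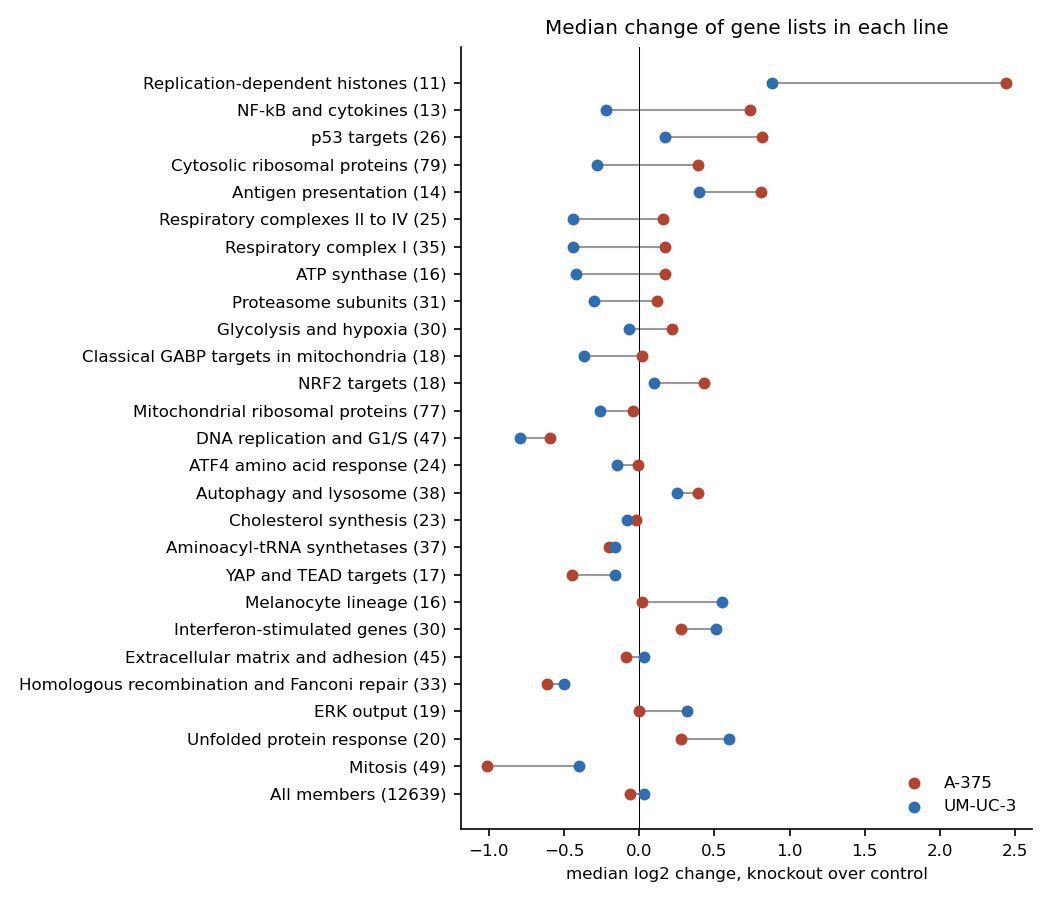
Median log2 change (x axis, knockout over control) of each gene list with at least 10 members in A-375 (red) and UM-UC-3 (blue), with the number of members in brackets and all members in the bottom row. Respiratory, proteasome and cytosolic ribosomal protein lists lie above 0 in A-375 and below 0 in UM-UC-3, while replication, mitosis and repair lists lie below 0 in both.

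In the remaining deposited comparison, exon 9 alone was deleted in 2 A-375 clones, named as a knockout of the long form. In its authors' deposited table GABPB1L fell (-12.79) and so did GABPB1S-DEX2 (-12.00), while GABPB1S was higher (13.95), with no meaning as folds. In the A-375 total knockout, GABPB1S had -9.81 and GABPB1S-DEX2 12.36, the reverse directions (authors' deposited table). Read at face value, the controls of both fits would differ in these entries. Whether the names stand for the same transcripts in both fits was not tested. The long-form comparison may share its A-375 controls with the total knockout, so values are given side by side with no test. Of the members in its table, 29 (0.233%) were higher and 64 (0.514%) lower. Of the 262 lower core genes 2 were higher and 3 lower, with a median of 0.04. Among these were the entries GABPB1S (higher) and GABPB1L (lower) of the edited gene itself. Of 134 higher core genes found there none was higher and 5 were lower, with a median of 0.03. The entry GABPB1S-DEX2 was among those 5. In the authors' deposited table of the long-form knockout, USP11 had -0.16, RMND5B -0.28 and GABPB2 0.29, none called (adjusted p 0.688, 0.409 and 0.695). PDE2A, higher in both total knockouts, had -2.12 there (adjusted p 0.00533, authors' deposited table).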

How the data were processed

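Polyadenylated RNA of edited and control clones was sequenced. The authors deposited 3 DESeq2 summary tables, per the file headers. Per the submitters' processing notes, the tools were HISAT2, SAMtools, StringTie and DESeq2 and the build hg38; no versions are listed there. The gene filter, annotation, counting strand and design formula were not stated. The signal column is the authors' mean over a fit's libraries of counts divided by size factors, as the header implies. The log2 columns are the authors' fitted change of knockout over control and its SE. The authors' score is a Wald statistic. Its deposited p-value stands beside an adjusted p (Benjamini-Hochberg) and a q-value. No column of unmapped samples was present.

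Entries were joined by gene name. Date-like names that can stand for 2 genes were dropped, and the 18 other date-like names were tested but not named. KRT81 had no adjusted p in A-375. From these columns the difference of changes, its SE, a 2-sided normal p and adjusted p were computed with pandas 2.3.3, scipy 1.17.1 and statsmodels 0.14.6 in Python 3.11.15. The test was tried on simulated tables in which 200 of 12639 genes had a known difference. It recovered a mean of 2.4 of them at a log2 difference of 0.5, 81.1 at 1 and 168.4 at 2. Small differences can therefore go unseen. At these 3 sizes a mean of 9.92%, 5.29% and 4.8% of the calls were false. The simulated noise was drawn from the SEs of both fits, so the trial cannot show whether those SEs are right. Calls used an adjusted p under 0.05. List genes were matched through RefSeq synonyms, and places and transcript lengths came from GENCODE release 29 (12325 of 12639 members). Motif lengths searched were 8, 7 and 6 letters; other motifs were looked at during exploration and are not reported.

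The members, the 30 lists and the rules were chosen with earlier results of these data known. Named genes were GABP subunits, then the 12 core genes each way (mean at least 100, log2 change at least 1 in size in both, by the larger adjusted p), the 12 differences each way (mean at least 100, size at least 1, by adjusted p), 8 opposite calls each way, and up to 4 differing and 4 core members per list. Read-through, clone and hyphen-joined names were left out. SPPL2A and GABPB1-AS1 are named for their place and KRT18 as a marker, after their values were seen. Alternatives were no minimum mean, a minimum of 100, centring, a threshold of 0.01, SEs scaled from libraries to clones (by 1.15 in A-375 and 1.06 in UM-UC-3), the q-value, size minimums and shorter motifs. Length and chromosome corrections and the use of genes with 1 window were chosen after seeing the data.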

Additional observations from a re-analysis of the deposited data

Results flagged for a closer look

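The A-375 change minus the UM-UC-3 change passed the test of the difference for 37 of the core, difference and opposite-call genes named above. Both lines fell with RMND5B (-2.09), NEK9 (-1.15), STAMBP (-0.95), MAP2K5 (-0.99) and ANTXR1 (3.08), and both rose with HYDIN (3.05) and HDC (-17.56, with no fold meaning). Among the other genes with A-375 above were MYL6 (1.59), CD163L1 (4.43), GALNT18 (2.14), LGALS1 (1.67), GPC1 (1.96), POLR2L (1.78), PRKCDBP (2.21), USMG5 (1.38), DYNLT1 (1.07), CD151 (1.34), POP5 (1.34) and ARPC4 (0.92). With A-375 below were ZCCHC24 (-2.24), NCAM2 (-2.27), TMEM110 (-24.76, with no fold meaning), UAP1L1 (-1.73), MOSPD2 (-2.02), CNTRL (-1.96), PFKFB2 (-1.35), MIA3 (-1.28), CTAGE5 (-1.17), EHHADH (-1.70) and SLC43A1 (-2.10). Opposite calls with A-375 below were SNAPC3 (-1.16), LNX2 (-1.48), TOX2 (-2.59), DBT (-0.99), MRPS30 (-1.17), STXBP5 (-1.08) and INTS6 (-1.44). All values are differences of log2 changes.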

How the results depend on the processing

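No paired analysis was possible because the deposited tables hold no value per library, and leaving out each replicate was not run for the same reason. Without a minimum mean, or with a minimum of 100, every count stayed within 1.5 times its value. At a threshold of 0.01, A-375 had 250 higher and 333 lower genes, UM-UC-3 1396 and 1211, the difference 208 above and 310 below, the core 49 higher and 110 lower, opposite calls 7 and 4, and A-375 413 calls of its own. With SEs scaled to the number of clones, A-375 had 232 higher and 311 lower, the difference 267 above and 392 below, the core 54 higher and 120 lower, opposite calls 10 and 6, and A-375 353 calls of its own. With the q-value, the core had 265 higher and 410 lower, and opposite calls were 80 and 88. With a log2 change of at least 1, A-375 had 252 higher and 253 lower, UM-UC-3 499 and 255, the core 68 higher and 57 lower, opposite calls 3 and 3, and calls in 1 line only 374 in A-375 and 623 in UM-UC-3. With a difference of at least 1, 227 lay above and 415 below. Centring moved opposite calls to 61 and 15. With the length trend removed, A-375 had 467 lower, the difference 392 below, and opposite calls with A-375 lower were 11; with chromosome medians removed, the last 2 were 528 and 17. Centring left 205 of the 262 lower and 148 of the 152 higher core genes, and removing the length trend 184 of 257 and 141 of 149.

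Of 103 named genes past the difference test, 7 lost the call after centring, 13 with chromosome medians removed, 28 with the length trend removed and 31 with scaled SEs; the cause was not tested. No named difference past the test changed sign. The median difference of the extracellular matrix list turned from -0.21 to 0.01 with the length trend removed. The ratio of the lower core's share of CCGGAAGT to that of all members, 2.51, was 2.31 and 1.95 for the shorter motifs and 2.42 for genes with 1 window.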
